A study of Mus musculus with 6 samples.

Results

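GPR-named genes are the mouse genes that carry Gpr and a number as their name, most of them G protein-coupled receptors numbered before a ligand was known. The members here are all gene names on the array that consist of Gpr, a number and at most 1 further letter. Names were read over the spots that are not controls. No measured value entered this rule, but earlier results of these data were known when the members were chosen. They are 142 spots, 115 probes and 94 genes, of 34844 gene names on the array. All 94 matched a RefSeq gene, 22 of them under another symbol (Gpr110 is now Adgrf1, Gpr77 is C5ar2), and the array's own names are used throughout. Of the 94, 9 are membrane proteins of other kinds that once received a GPR name.

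RNA from bone marrow-derived macrophages (BMDMs) was labelled with Cy3 and measured on 6 one-colour Agilent arrays in 3 groups of 2 replicates, and this small number of arrays limits the precision of every value. All cells came from wild type female C57BL/6 mice (strain C57/B6 in the labels), 6 to 8 weeks of age by the labels and 8 to 12 by the paper's methods, and grew for 7 days in medium conditioned by L929 cells. The first group was left untreated. The LPS group received lipopolysaccharide for 4 h at 100 ng/ml. The LPS+USP7i group received 10 µM HBX41,108, an inhibitor of the deubiquitinase USP7, for 30 min and then the same LPS treatment. The series' text gives the LPS dose per ml and the sample protocol gives the same figure per µl, and neither says whether the cells without inhibitor received its solvent. The replicates were independent experiments by the series' text. All arrays lay on 1 slide that was scanned once, with untreated cells in slide row 1, LPS in row 2 and LPS+USP7i in row 4, so slide row and treatment cannot be told apart. Replicate 1 lay in column 1 and replicate 2 in column 2 in every group, so replicate number and slide column cannot be told apart either.

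G protein-coupled receptors span the membrane several times and, on binding a ligand, activate heterotrimeric G proteins that raise or lower cAMP or release calcium. Kinases and arrestins then switch the receptor off, and RGS proteins shorten the life of the active G protein. Macrophages use such receptors to read fatty acids, oxysterols, lysophospholipids, acidity and chemoattractants, and the set they carry differs between resting and activated cells.

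The values below are normalized signals, the background-subtracted spot intensity after quantile normalization between arrays, in arbitrary units, with each gene represented by its brightest probe. A probe was taken as well above background on an array when the scanner software set its gIsWellAboveBG flag on most of its spots, and a gene was called expressed when a probe of it passed this on both replicates in 1 or more groups. By this rule 36 of the 94 genes (38.3%) were expressed, against 18362 of all 34844 gene names (52.7%). Of the 94, 27 were well above background on all 6 arrays, 44 on at least 1 array and 50 on none. The other 8 (among them Gpr4, Gpr22, Gpr30, Gpr37, Gpr44, Gpr124 and Gpr143) were well above background on 1 array each and so in no complete group. Both arrays showed 33 of the genes at rest, 32 after LPS and 27 after LPS+USP7i. By single array, 35 and 35 genes were well above background in the untreated replicates, 34 and 34 in the LPS replicates, and 31 and 28 in the LPS+USP7i replicates. Of all 59305 spots on an array, 27467 and 27126 were so in the untreated replicates. The counts of spots were 25223 and 25002 in the LPS replicates and 26415 and 25290 in the LPS+USP7i replicates. Over all spots the LPS arrays were thus the lowest, and the difference from the GPR-named genes was not tested.

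Detection is given here by kind of receptor, beside the 52.7% of all gene names, and differences between kinds were not tested. In the list of lipid and metabolite sensing receptors 6 of 12 were expressed (Gpr18, Gpr31c, Gpr34, Gpr84, Gpr171 and Gpr183). Gpr171 stands there by list membership alone, and no ligand was measured. Of the proton sensing receptors 3 of 4 were expressed (Gpr65 and Gpr132 among them). The membrane proteins of other kinds had the highest share, with 7 of 9 (Gpr89, Gpr107, Gpr108, Gpr137, Gpr137b, Gpr155 and Gpr172b). The adhesion receptors, which carry long extracellular domains that bind matrix or other cells, had 5 of 17 expressed (Gpr56, Gpr97, Gpr110, Gpr125 and Gpr126). Of the receptors for peptides and chemerin and of neural receptors, 6 of 21 were expressed (Gpr19, Gpr26, Gpr27, Gpr45, Gpr85 and Gpr176). The constitutively active receptors that couple to Gs had 2 of 3 (Gpr3 and Gpr6), the class C orphan receptors 0 of 3, and the remaining receptors 7 of 25 (Gpr25, Gpr77, Gpr141, Gpr146, Gpr157, Gpr160 and Gpr162). The normalized signals of the 58 genes that were not expressed ran from 3.68 to 36.4 over all arrays, while those of the 36 expressed genes ran from 3.80 to 33059, the low end coming from genes detected in 1 group alone. A group in which neither array is well above background gives a level that is only an upper limit, so folds against it are lower bounds. Log2 differences, SE and adjusted p against such a group rest in part on background values.

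**Figure D1:**
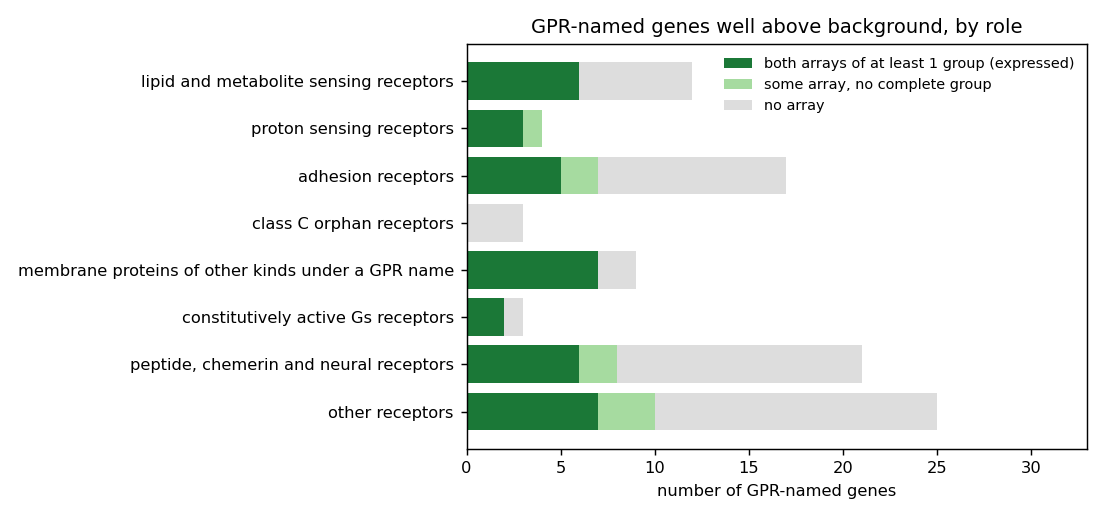
Number of GPR-named genes (x axis) by role (y axis), stacked as expressed (both replicates of a group well above background), well above background on some array but in no complete group, and on no array. Of 94 genes 36 were expressed, from 7 of 9 membrane proteins of other kinds to 0 of 3 class C orphan receptors.

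LPS against untreated cells asks which of these receptors change when BMDMs meet a bacterial product. Of the 94 genes, 8 rose and 10 fell at an adjusted p under 0.05, where 7.99% of all 34844 gene names were higher and 12.7% lower, so that the members' shares of 8.51% and 10.6% lie near those of all genes. The 8 that rose, all expressed, were Gpr18, Gpr31c, Gpr45, Gpr84, Gpr85, Gpr110, Gpr126 and Gpr132. The expressed genes that fell were Gpr19, Gpr34, Gpr137b, Gpr146, Gpr155, Gpr160, Gpr162 and Gpr176. The other 2 called lower, Gpr35 among them, were well above background on no array. With replicate number as a term in the fit, the adjusted p of Gpr35 went from 0.0446 to 0.0783 and that of Gpr44, which was likewise not expressed, from 0.301 to 0.0485 (0.0372 to 0.166 and 0.0485 to 0.732 over 13 alternatives). The median log2 difference was 0.02 over the 94 genes, against 0.00 over all genes. It was -0.27 over the 36 expressed members, against -0.19 over all expressed genes. Scaling each array to its 75th percentile in place of quantile normalization moved the median of all genes by 0.40 and gave 42 higher and 9 lower, 9 and 8 of these among expressed genes. All 16 expressed genes called in this comparison kept their sign under that scaling, also after the shift was taken off. With 1 array left out, the calls that remained of these 16 were 7 and 6 without untreated replicate 1 or 2, 9 and 10 without LPS replicate 1 or 2, and 15 without either LPS+USP7i replicate. Gpr31c, Gpr45, Gpr84, Gpr110 and Gpr146 were the 5 that passed whichever array was left out.

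LPS+USP7i against LPS asks what the inhibitor changes in LPS-treated cells. Here 2 genes were higher (Gpr176 among them), where 5.42% of all gene names were, and 7 were lower (Gpr18, Gpr31c, Gpr45, Gpr84, Gpr85, Gpr108 and Gpr110), where 4.29% were. The members' shares were 2.13% and 7.45%. The median log2 difference was -0.09 over the 94 genes and 0.00 over all genes. It was -0.26 over the 36 expressed members and 0.05 over all expressed genes. With 75th percentile scaling the split was 2 higher and 5 lower, and the median of all genes stayed at 0.00. None of the 9 calls passed without untreated replicate 1 or without untreated replicate 2, arrays that enter this comparison only through the shared estimate of the spread in limma. At an unadjusted p under 0.05, 4 members were higher and 11 lower with either of them left out. With only the 2 groups compared, none of the 9 passed either (4 and 11 unadjusted). Of the 9, 3 passed without LPS replicate 1 and 3 without LPS replicate 2 (Gpr45 and Gpr176 among them each time), 4 without LPS+USP7i replicate 1 and 5 without LPS+USP7i replicate 2. A fit with replicate number as a term kept 5 of the 9, among them Gpr31c, Gpr45, Gpr85 and Gpr176, and its count of lower members was 3.

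LPS+USP7i against untreated cells shows how far the cells with both agents stood from rest. In this comparison 5 genes were higher (among them Gpr45, Gpr84, Gpr126 and Gpr132), where 6.15% of all gene names were, and 6 were lower (Gpr19, Gpr146, Gpr155, Gpr162, Gpr172b and Gpr183), where 8.78% were. The members' shares were 5.32% and 6.38%, and the median was -0.01 over the 94 genes. It was -0.29 over the 36 expressed members, against -0.09 over all expressed genes. With 75th percentile scaling, which moved the median of all genes by 0.44, 40 were higher and 10 lower, 7 and 10 of these among expressed genes. The 11 calls kept their sign under it, also after the shift was taken off. With only the 2 groups compared, 5 of the 11 passed. Gpr84 was 1 of 2 that passed with any array left out. Of the 11 calls, 2 passed without untreated replicate 1 and 2 without untreated replicate 2, 5 without LPS replicate 1 and 5 without LPS replicate 2, 6 without LPS+USP7i replicate 1 and 4 without LPS+USP7i replicate 2. The 3 comparisons share arrays pairwise, so each is given by its own values below, and with 2 arrays against 2 an exact two-sided permutation test could not go below p = 0.333. Counts by kind of receptor below stand beside the shares of all gene names given for each comparison, and were not tested against them.

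**Figure D2:**
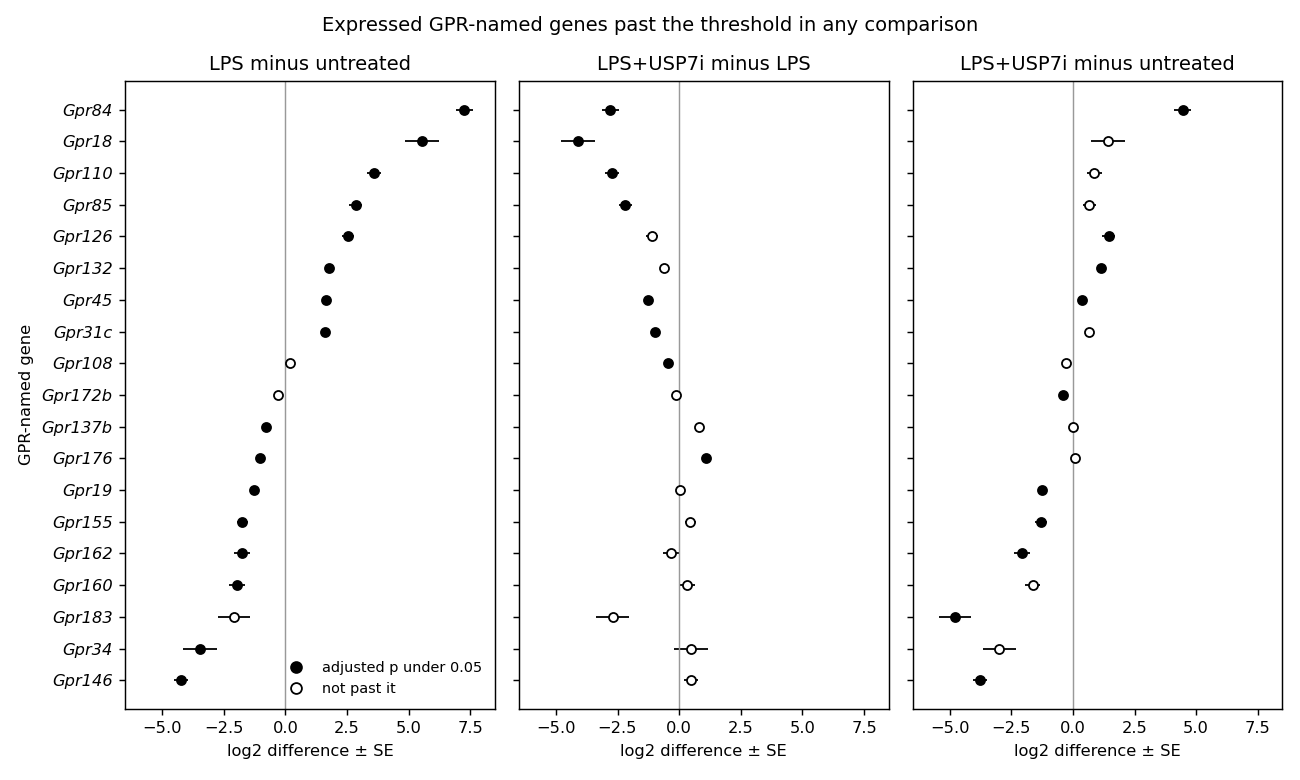
Log2 differences (x axis) of 19 expressed GPR-named genes past an adjusted p of 0.05 in any comparison (y axis), with standard errors, for the 3 comparisons; filled points passed and open points did not. Gpr84 has the largest rise with LPS (7.25), and Gpr146 the largest fall in the same comparison (-4.25); each of these signs also held with 75th percentile scaling.

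Among the lipid and metabolite sensing receptors, 3 rose and 2 fell with LPS, 0 rose and 3 fell with the inhibitor added (limma; 0 and 4 at an unadjusted p under 0.05), and 1 was higher and 1 lower with both agents than in untreated cells. The replicate block gave 1 lower with LPS, 1 lower with the inhibitor added, and 2 higher and 2 lower with both agents. Gpr84 is a receptor for medium-chain fatty acids that couples to Gi and is known as a gene of activated macrophages. Its normalized signal was 264 and 153 in the untreated replicates, 33059 and 28318 in the LPS replicates, and 3679 and 5295 in the LPS+USP7i replicates. The LPS arrays were the highest, the untreated arrays the lowest, and the LPS+USP7i arrays lay between them with no overlap of the 3 groups. Gpr84 rose 152-fold with LPS (log2 difference 7.25 ± 0.34 SE, adjusted p = 0.00323). It fell 6.93-fold when the inhibitor preceded LPS (log2 difference -2.79 ± 0.34 SE, adjusted p = 0.0274), a call that the replicate block ended (adjusted p = 0.0577; 0.000964 to 0.114 over 15 alternatives). With both agents it was still 21.9-fold above untreated cells (log2 difference 4.45 ± 0.34 SE, adjusted p = 0.00853). The rise with LPS and the excess over untreated cells passed under all 15 alternatives, with adjusted p up to 0.0302 and 0.0465. The fall with the inhibitor passed with none of the 6 arrays left out (adjusted p 0.0568 to 0.114), and its log2 difference then ran from -3.06 to -2.53. In these bulk samples, fewer cells that carry a transcript and less of it per cell cannot be told apart, here and for all genes below.

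The first 30 of 60 bases of the Gpr84 probe are shown because every Gpr84 value rests on this 1 probe, which the array's annotation places at chr15:103138670-103138729 of mm9, minus strand.
Gpr84 probe: gtcaaccctgtgtgacccaaggagtgtggt

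Gpr18, described as a receptor for N-arachidonoyl glycine and resolvins, was detected with LPS alone. Its signal was 602 and 351 with LPS, 18.3 and 5.43 in untreated cells and 23.6 and 31.2 with LPS+USP7i, and in those last 2 groups no array was well above background. Both LPS arrays stood far above the other 4, and the untreated and LPS+USP7i groups lay at the level of background. Gpr18 was at least 27.3-fold higher with LPS than in untreated cells (log2 difference 5.53 ± 0.69 SE, adjusted p = 0.0143). It was at least 16.9-fold lower with LPS+USP7i than with LPS (log2 difference -4.08 ± 0.69 SE, adjusted p = 0.0483; with the replicate block 0.0653, and 0.00141 to 0.173 over 15 alternatives). Against untreated cells the LPS+USP7i level gave no call (adjusted p = 0.325). The rise with LPS did not pass without LPS replicate 1 or without LPS replicate 2 (adjusted p up to 0.0748), and the fall passed with none of the 6 arrays left out (0.0632 to 0.173).

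Gpr183 (EBI2) is the oxysterol receptor that guides B cells and other immune cells, and its gene lies next to Gpr18 on chromosome 14. Its signal was 287 and 243 on the untreated arrays, 58.2 and 66.3 on the LPS arrays, and 18.3 and 5.05 on the LPS+USP7i arrays, where it was not above background. The groups followed each other downward in this order without overlap, so that the neighbouring genes Gpr18 and Gpr183 were high in different groups. Only the step from untreated to LPS+USP7i passed, at least 13.3-fold lower (log2 difference -4.78 ± 0.66 SE, adjusted p = 0.0236). The log2 difference was -2.09 for LPS against untreated (adjusted p = 0.130) and -2.69 for LPS+USP7i against LPS (adjusted p = 0.102). The call was lost without either untreated or either LPS replicate (adjusted p up to 0.115). The probes of the pair are shown with their first 30 bases, since these neighbours had log2 differences of opposite sign with LPS, that of Gpr18 past the threshold. The mm9 annotation places them at chr14:122311608-122311667 and chr14:122351881-122351940, both on the minus strand.
Gpr18 probe: cagtgaccatctacatgatgaacgttgcac
Gpr183 probe: gttccagccctaaaatttctccagtacagt

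Gpr34, a receptor for lysophosphatidylserine that is known from microglia and mast cells, was detected in untreated cells alone. Its signal was 81.2 and 65.6 there, against 9.76 and 4.47 after LPS and 15.6 and 5.44 after LPS+USP7i, none of these 4 well above background. Untreated cells were high and both treated groups overlapped at background. The fall with LPS was at least 3.25-fold (log2 difference -3.47 ± 0.68 SE, adjusted p = 0.0408), and it was lost without either untreated or either LPS replicate (adjusted p up to 0.166). For LPS+USP7i against untreated the level was at least 3.75-fold lower at an adjusted p of 0.0712, which became 0.0348 with the replicate block (0.00336 to 0.248 over 14 alternatives).

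Gpr31c belongs to a small group of near-identical mouse genes related to the human receptor for a hydroxyeicosatetraenoic acid. Its signal was 77.2 and 66.5 at rest, 246 and 197 under LPS, and 114 and 112 under LPS+USP7i, 3 groups that did not overlap. It rose with LPS (log2 difference 1.62 ± 0.15 SE, adjusted p = 0.00735), a call that held under all 15 alternatives. It fell with the inhibitor added (-0.96 ± 0.15 SE, adjusted p = 0.0391), a call that passed with none of the 6 arrays left out (0.0597 to 0.131) and in 5 of 15 alternatives. Against untreated cells the log2 difference of LPS+USP7i was 0.66 (adjusted p = 0.0684; 0.0490 with the replicate block, 0.0260 to 0.239 over 14 alternatives). Gpr171, the last expressed receptor in this list, gave 89.7 and 64.3, 118 and 45.6, and 74.0 and 55.0 in the same order of groups, with overlap between all of them and no call.

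The proton sensing receptors are activated by extracellular acid through histidines on their outer face, and 0 of the 4 were called lower in any comparison (limma; 1, 2 and 1 at an unadjusted p under 0.05). With the replicate block 1 of them, Gpr65, was lower with both agents. Gpr132 is a stress-inducible receptor of macrophages and lymphocytes that has been linked to oxidized fatty acids and lactate. Its signal was 3929 and 3969 without treatment, 15606 and 11841 after LPS, and 8145 and 9572 after LPS+USP7i, in 3 groups without overlap. It rose 3.44-fold with LPS (log2 difference 1.78 ± 0.17 SE, adjusted p = 0.00828) and was 2.24-fold above untreated cells with both agents (1.16 ± 0.17 SE, adjusted p = 0.0266; with the replicate block 0.0562, and 0.00314 to 0.123 over 15 alternatives). The log2 difference between LPS+USP7i and LPS was -0.62 ± 0.17 SE (adjusted p = 0.127). The rise with LPS did not pass without untreated replicate 1 or 2 (adjusted p up to 0.0565), and the excess with both agents did not pass without either untreated or either LPS+USP7i replicate (up to 0.123). Gpr65 (TDAG8), which raises cAMP in acid, had signals of 2113 and 1575 on the untreated arrays, 1291 and 906 on the LPS arrays, and 904 and 848 on the LPS+USP7i arrays. The groups lay in descending order without overlap, but no difference passed: the log2 differences were -0.75 with LPS (adjusted p = 0.133), -0.30 between the LPS groups (adjusted p = 0.578) and -1.06 for both agents against untreated (adjusted p = 0.0724, and 0.0390 with the replicate block; 0.0160 to 0.229 over 14 alternatives). Gpr4 was well above background only on the first LPS array.

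**Figure D3:**
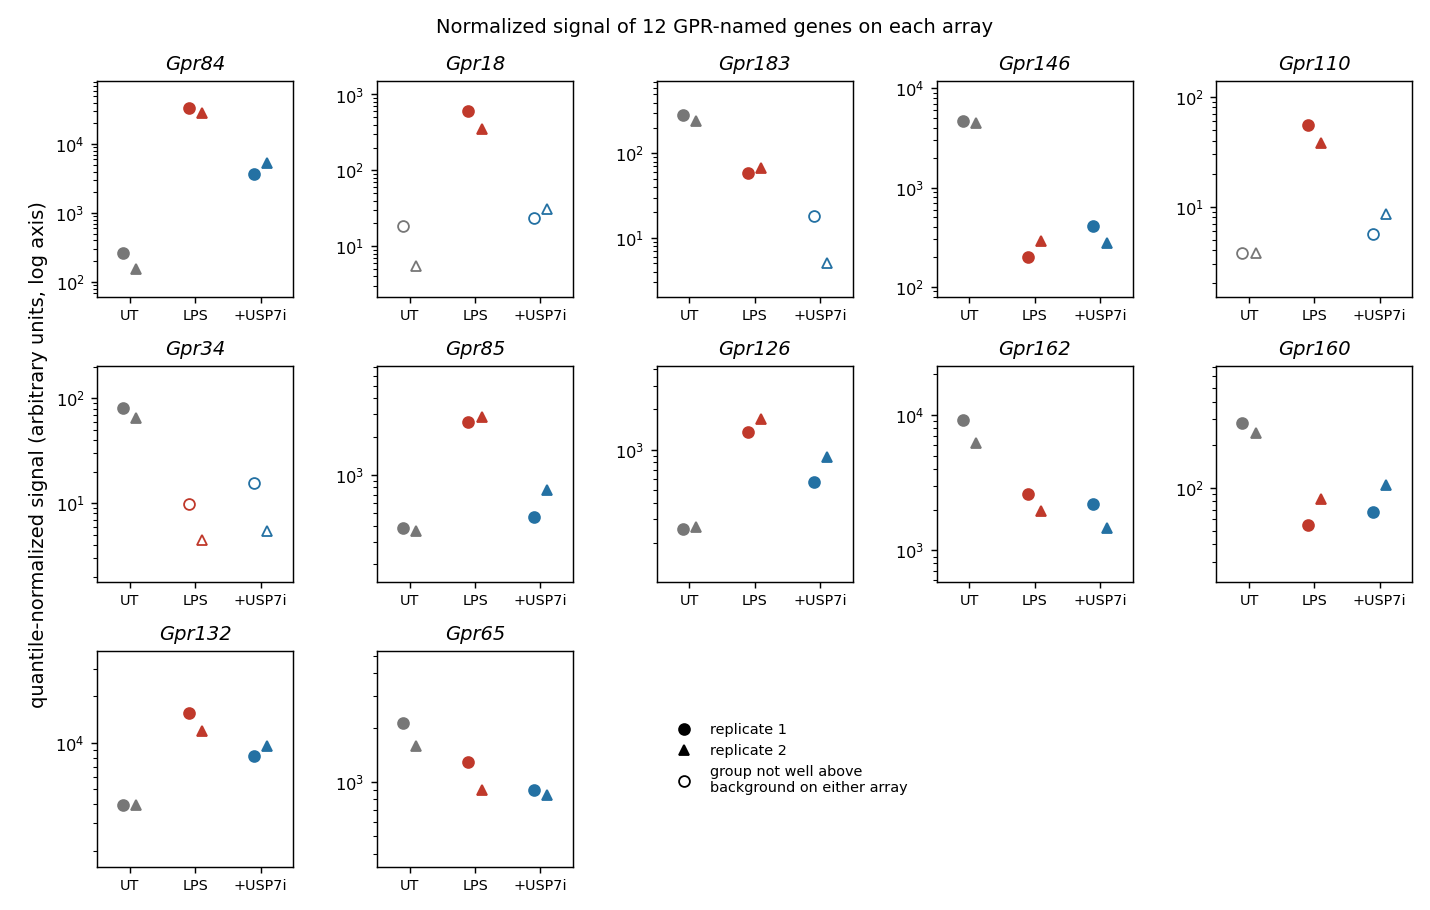
Normalized signal (arbitrary units, log axis) of 12 GPR-named genes on each of the 6 arrays; UT stands for untreated and +USP7i for LPS+USP7i, symbols mark the replicate, and open symbols mark a group in which neither array was well above background. Gpr84 spans 153 to 33059, and Gpr146 is at 4434 to 4715 on the untreated arrays and at 199.9 to 408 on the other 4.

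Of the 17 adhesion receptors, 2 rose and 0 fell with LPS, 0 rose and 1 fell with the inhibitor added, and 1 was higher and 0 lower with both agents than in untreated cells. At an unadjusted p under 0.05 limma gave 1, 0 and 2 for these counts of 0. Under the replicate block 2 fell with LPS and 1 was lower with both agents, and the fall with the inhibitor was lost. Gpr110 (Adgrf1) binds a docosahexaenoic acid amide and is known from developing neurons. Its signal was 3.80 and 3.80 at rest, 55.7 and 37.6 under LPS, and 5.69 and 8.51 under LPS+USP7i, and only the LPS arrays were well above background. It was at least 3.05-fold higher with LPS than without (log2 difference 3.59 ± 0.29 SE, adjusted p = 0.00619). The call held under all 15 alternatives, which read the same dim spots. The 2 untreated values lay at background with a log2 standard deviation of 0.001. The log2 difference, SE and adjusted p thus rest in part on background values, and Gpr110 counted as expressed through the LPS group alone. With LPS+USP7i it was at least 2.36-fold lower than with LPS (-2.72 ± 0.29 SE, adjusted p = 0.0220; with the replicate block 0.0517, and 0.00380 to 0.0804 over 15 alternatives). That fall passed only without LPS+USP7i replicate 2, and the adjusted p reached 0.0768 with another array left out.

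Gpr126 (Adgrg6) binds collagen and laminin and is required for myelination by Schwann cells. Its signal was 255 and 265 for untreated BMDMs, 1355 and 1689 for LPS, and 574 and 877 for LPS+USP7i, with the LPS arrays highest, the untreated arrays lowest and no overlap. It rose 5.82-fold with LPS (log2 difference 2.54 ± 0.25 SE, adjusted p = 0.00862) and was 2.73-fold above untreated cells with both agents (1.45 ± 0.25 SE, adjusted p = 0.0375). Between the LPS groups the log2 difference was -1.09 ± 0.25 SE (adjusted p = 0.0862). Without untreated replicate 1 or 2 the rise with LPS was not called (adjusted p up to 0.0575), and the excess with both agents passed only without LPS+USP7i replicate 1 (up to 0.156).

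The other expressed adhesion receptors, Gpr56, Gpr97 and Gpr125, passed in no comparison. Gpr97 (Adgrg3), known from neutrophils, had 403 and 291 in untreated cells against 175 and 171 with LPS (log2 difference -0.99 ± 0.23 SE, adjusted p = 0.0601). With the replicate block its adjusted p was 0.0390 (0.0132 to 0.192 over 14 alternatives). Gpr56 (Adgrg1), a collagen receptor, gave -1.31 for LPS against untreated (adjusted p = 0.249, and 0.0456 with the replicate block; 0.0456 to 0.630 over 14 alternatives). Gpr125 gave -1.17 for both agents against untreated cells (adjusted p = 0.0974, and 0.0236 with the block; 0.0236 to 0.312 over 14 alternatives). Gpr56 and Gpr97 are neighbours on chromosome 8.

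Among the 21 receptors for peptides and chemerin and neural receptors, 2 rose and 2 fell with LPS, 1 rose and 2 fell with the inhibitor added, and 1 was higher (lost with the replicate block) and 1 lower with both agents than in untreated cells. Gpr85 is an orphan receptor of the brain, highly conserved between vertebrates. Its signal was 387 and 364 without treatment, 2600.4 and 2853 after LPS, and 467 and 763 after LPS+USP7i. The LPS arrays stood apart from the other 4, and the LPS+USP7i arrays lay above the untreated ones. Gpr85 rose 7.25-fold with LPS (log2 difference 2.86 ± 0.26 SE, adjusted p = 0.00751) and fell 4.57-fold with the inhibitor added (-2.19 ± 0.26 SE, adjusted p = 0.0260). Against untreated cells the difference of 0.67 ± 0.26 SE did not pass (adjusted p = 0.227). The rise was not called without untreated replicate 2 (adjusted p = 0.0543), and the fall was not called without either untreated or either LPS replicate (up to 0.101).

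Gpr45, an orphan receptor of neurons, had a signal near background in 2 of the groups. It was 18.6 and 18.6 on the untreated arrays, 55.2 and 60.0 on the LPS arrays, and 23.8 and 24.6 on the LPS+USP7i arrays, and was well above background on both LPS arrays and on 1 array of each other group. It rose with LPS (log2 difference 1.63 ± 0.07 SE, adjusted p = 0.00304), under all 15 alternatives, and fell with the inhibitor added (-1.25 ± 0.07 SE, adjusted p = 0.0114). The fall was not called without untreated replicate 1 or 2, with eBayes with trend or with only the 2 groups compared (adjusted p 0.00352 to 0.0858 over 15 alternatives). Its small excess with both agents over untreated cells (0.38 ± 0.07 SE, adjusted p = 0.0426) passed with none of the 6 arrays left out and was 0.0600 with the replicate block (0.0103 to 0.931 over 15 alternatives).

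Gpr176, a receptor of the circadian clock in the suprachiasmatic nucleus that lowers cAMP, moved the other way. Its signal was 277 and 283 at rest, 130 and 148 under LPS, and 282 and 308 under LPS+USP7i, so that the LPS arrays were the low ones and the other 2 groups overlapped. It fell with LPS (log2 difference -1.01 ± 0.10 SE, adjusted p = 0.00818) and was higher with the inhibitor added (1.09 ± 0.10 SE, adjusted p = 0.0172). The log2 difference between LPS+USP7i and untreated cells was 0.07 (adjusted p = 0.753). Neither call passed without untreated replicate 1 or 2 (adjusted p up to 0.0570 for the fall and 0.0671 for the rise). Gpr19, an orphan receptor, was at 335 and 391 for untreated BMDMs, 134 and 164 for LPS, and 161 and 143 for LPS+USP7i, high in untreated cells alone. It fell with LPS (-1.29 ± 0.15 SE, adjusted p = 0.0129) and stayed low with both agents (-1.25 ± 0.15 SE against untreated, adjusted p = 0.0182). The first call was lost without untreated replicate 1 or 2 or LPS replicate 1 (up to 0.0699) and the second without either untreated or either LPS+USP7i replicate (up to 0.0895). Gpr26 and Gpr27, with signals of 12.5 to 35.7, gave no call.

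The 9 membrane proteins of other kinds gave 0 higher and 2 lower with LPS, 0 higher and 1 lower (lost with the replicate block) with the inhibitor added, and 0 higher and 2 lower with both agents against untreated cells (limma; 0, 1 and 0 higher at an unadjusted p under 0.05). Gpr155 is a lysosomal cholesterol sensor. Its signal was 337 and 285 without treatment, 95.5 and 89.7 after LPS, and 157 and 103 after LPS+USP7i, high in untreated cells alone. It fell with LPS (log2 difference -1.74 ± 0.24 SE, adjusted p = 0.0176) and was lower with both agents than in untreated cells (-1.29 ± 0.24 SE, adjusted p = 0.0446). Left-out untreated or LPS replicates ended both calls, and for the second LPS+USP7i replicate 2 did so too (adjusted p up to 0.0901 and 0.179).

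Gpr137b is a lysosomal membrane protein that regulates mTORC1 at the lysosome. Its signal was 18868 and 16987 on the untreated arrays, 10713 and 9913 on the LPS arrays, and 20201 and 15720.4 on the LPS+USP7i arrays, with both LPS arrays under all others. The fall with LPS passed (-0.80 ± 0.15 SE, adjusted p = 0.0391) and the difference between LPS+USP7i and LPS did not (0.79 ± 0.15 SE, adjusted p = 0.0623). The fall was lost without either untreated or either LPS replicate (adjusted p up to 0.162), with 75th percentile scaling and with the mean of all its probes. Gpr108, a Golgi protein, had 5905 and 6115 with LPS against 4371 and 4403 with LPS+USP7i (-0.45 ± 0.07 SE, adjusted p = 0.0425; with the replicate block 0.0755, and 0.0286 to 0.253 over 15 alternatives). Gpr172b, the riboflavin transporter now called Slc52a2, had 1415 and 1311 in untreated cells against 1020.5 and 1038 with LPS+USP7i (-0.40 ± 0.07 SE, adjusted p = 0.0333; with the block 0.0585, and 0.0207 to 0.167 over 15 alternatives). Both of these small differences passed with none of the 6 arrays left out. Gpr107, Gpr137 and Gpr89 gave no call, Gpr107 reaching an adjusted p of 0.0802 for both agents against untreated cells and 0.0447 with the replicate block (0.0373 to 0.274 over 14 alternatives).

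The receptors Gpr3 and Gpr6, which raise cAMP through Gs without a ligand, were well above background on all 6 arrays and gave 0 calls by limma (0 also at an unadjusted p under 0.05). Their arrays overlapped between all groups, at 1143 to 1971 for Gpr3 and 43.2 to 63.9 for Gpr6.

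Of the 25 remaining receptors, 0 rose and 4 fell with LPS, 3 of the 4 expressed, and 0 were higher and 2 lower with both agents than in untreated cells. Between the LPS groups 0 were called by limma, against 2 higher and 1 lower at an unadjusted p under 0.05. The unadjusted counts of higher genes were 0 for LPS and 0 for both agents against untreated cells, and the replicate block gave 1 for LPS. Gpr146 is an orphan receptor known from the liver, where it governs cholesterol levels in blood. Its signal was 4715 and 4434 at rest, 199.9 and 289 under LPS, and 408 and 275 under LPS+USP7i. Untreated arrays were high, and the 2 LPS groups were low and overlapped. Gpr146 fell with LPS (log2 difference -4.25 ± 0.28 SE, adjusted p = 0.00457), under all 15 alternatives, and was 13.6-fold lower with both agents than in untreated cells (-3.77 ± 0.28 SE, adjusted p = 0.00812). The inhibitor made no called difference (0.48 ± 0.28 SE, adjusted p = 0.473). The second fall did not pass without untreated replicate 1 or 2 (adjusted p up to 0.0556). The Gpr146 probe is shown as that of the member with the largest fall with LPS, at chr5:139872290-139872349 of mm9 on the plus strand.
Gpr146 probe: caaaattctgtgaatgtgaaaaagaaacta

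Gpr162, an orphan receptor, had signals of 9166 and 6217 for untreated BMDMs, 2616 and 1939 for LPS, and 2200.1 and 1467 for LPS+USP7i. Both untreated arrays were high, and the LPS groups overlapped. It fell with LPS (log2 difference -1.74 ± 0.33 SE, adjusted p = 0.0370) and was lower with both agents than in untreated cells (-2.07 ± 0.33 SE, adjusted p = 0.0311). Both calls passed with none of the 6 arrays left out (adjusted p 0.0564 to 0.138 and 0.0624 to 0.120). Gpr160, another orphan receptor, had 283 and 240.0 without treatment, 54.9 and 82.9 after LPS, and 67.6 and 104 after LPS+USP7i, again high in untreated cells with overlap of the LPS groups. It fell with LPS (-1.95 ± 0.32 SE, adjusted p = 0.0266), a call lost without either untreated or either LPS replicate (up to 0.124). With both agents against untreated cells the log2 difference was -1.64 ± 0.32 SE (adjusted p = 0.0502).

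Gpr141, an orphan receptor of blood cells, had 199 and 241 on the untreated arrays, 347 and 432 on the LPS arrays, and 61.8 and 139 on the LPS+USP7i arrays. The LPS arrays were the highest and the LPS+USP7i arrays the lowest, without overlap, and yet its log2 difference of -2.07 ± 0.44 SE between them did not pass (adjusted p = 0.0760). Gpr77 (C5ar2), the second receptor for complement C5a, and Gpr157 and Gpr25 gave no call either.

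**Figure D4:**
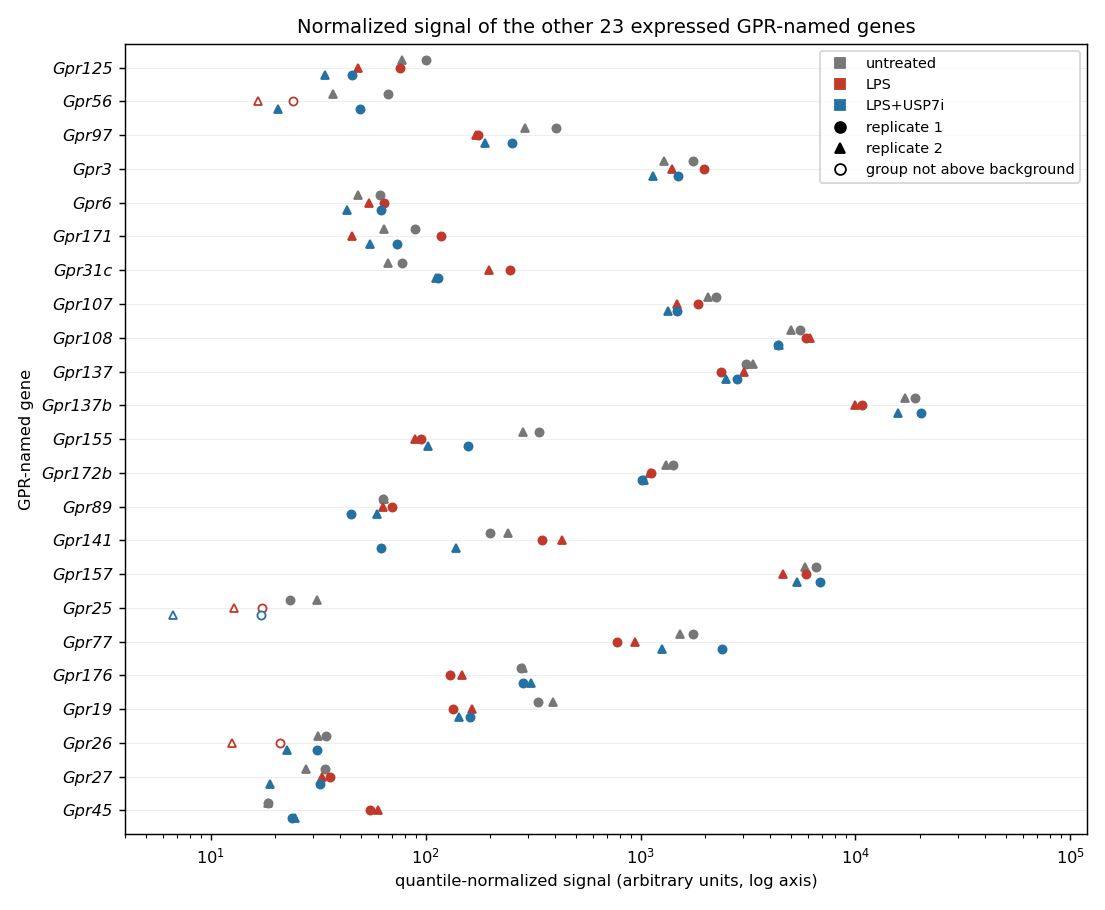
Normalized signal (x axis, arbitrary units, log axis) of the other 23 expressed GPR-named genes (y axis) on each of the 6 arrays; colours mark the group, shapes the replicate, and open symbols mark a group in which neither array was well above background. Gpr176 is lowest on the LPS arrays (130 and 148), and Gpr137b ranges from 9913 to 20201.

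Several probes read 16 of the 94 genes: 12 genes had 2 probes, 3 had 3 and 1 had 4. The 3 genes described here were chosen after their values were seen. The 4 probes of Gpr137b gave log2 differences with LPS of -0.80, -1.28, -0.57 and -0.83, and of 0.79, 0.80, 0.44 and 0.78 for LPS+USP7i against LPS, so that the sign was the same for all 4 and the size was not. For Gpr31c, 2 probes lie next to each other on chromosome 17 and gave 1.62 and 1.68 with LPS and -0.96 and -1.03 for LPS+USP7i against LPS. By limma the rise passed for both (adjusted p = 0.00735 and 0.0318). The fall passed for the brighter probe only (adjusted p = 0.0391 and 0.140). The third Gpr31c probe was matched to Gpr31b elsewhere on chromosome 17 and was well above background on 1 array. Since these genes are near-identical copies, which copy each probe reads was not tested.

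The 2 probes of Gpr77 share 44 of their 60 bases and still differed. They lie 16 bases apart, at chr7:16820101-16820160 and chr7:16820085-16820144 of mm9, minus strand. With LPS both gave like log2 differences against untreated cells (-0.93 and -0.97), but LPS+USP7i against LPS gave 1.02 for the brighter probe and -0.08 for the other, neither past the threshold (adjusted p = 0.198 and 0.928). The brighter probe had 1746 and 1526 at rest, 778 and 939.7 under LPS, and 2401 and 1260.15 under LPS+USP7i. The other had 831 and 712, 349.5 and 438, and 445 and 307. Replicate 1 of LPS+USP7i was the highest array for the brighter probe, whereas for the other probe both LPS+USP7i arrays lay under the untreated ones. The stretches below hold the bases that only 1 of the probes has, in capitals, which are the first 16 of the brighter probe and the last 16 of the other.
Gpr77 representative probe: CTTGGGCCTAACAACAcacatacggttaag
Gpr77 other probe: atttcgtggcatctAACAAAATAAAAGAAA

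**Figure D5:**
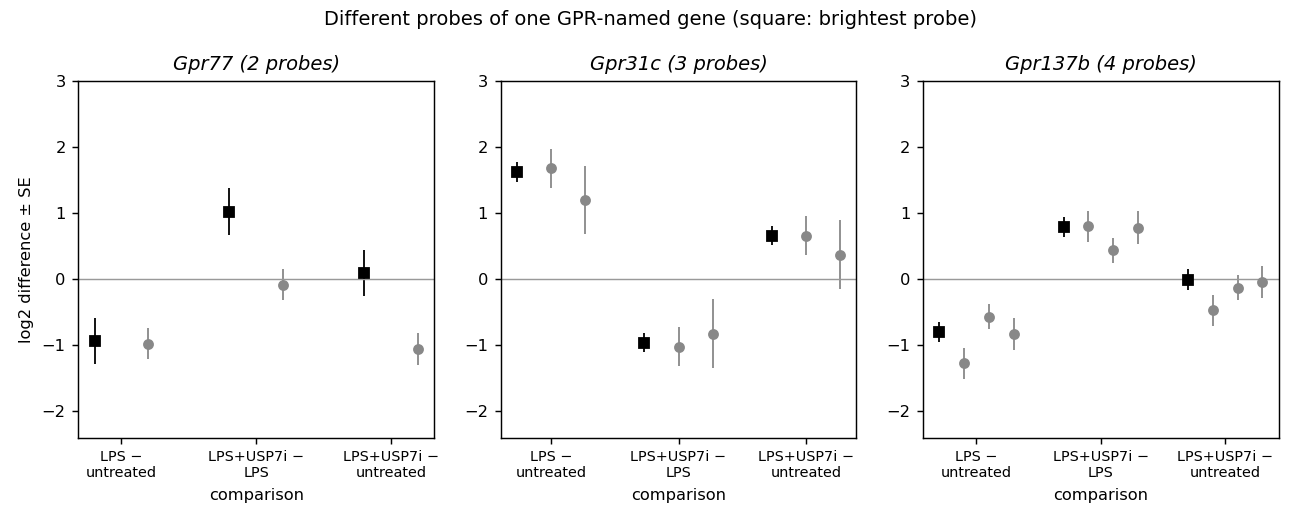
Log2 differences (y axis) of each probe of Gpr137b, Gpr31c and Gpr77 in the 3 comparisons (x axis), with standard errors; squares mark the brightest probe. The 4 Gpr137b probes lie from -1.28 to -0.57 for LPS against untreated, and the 2 Gpr77 probes from -0.08 to 1.02 for LPS+USP7i against LPS.

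Some members lie side by side in the genome. By the order of genes in RefSeq (GRCm38.p6) neighbouring members include Gpr18 and Gpr183 on chromosome 14, Gpr34 and Gpr82 on X, Gpr56 and Gpr97 on chromosome 8, and on chromosome 17 Gpr115 with Gpr111 and Gpr110 with Gpr116. Within these runs the expressed genes were Gpr18, Gpr183, Gpr34, Gpr56, Gpr97 and Gpr110. Gpr110 rose with LPS while Gpr116 beside it was well above background on no array, and Gpr34 fell with LPS beside Gpr82, which was likewise on no array.

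RefSeq promoters were searched on both strands for exact matches to 3 motifs. These were the kappaB motif GGGRNNYYCC (R is A or G, Y is C or T, N any base), the AP-1 motif TGANTCA and the core of the interferon-stimulated response element (ISRE). In 32851 mouse promoters of the same length these stood in 8.46%, 7.81% and 3.44%. Of the 20 expressed members called in any comparison, 14 had a promoter in the table, with 20 start sites in all, and 9 of the 14 held none of the 3 motifs. The kappaB motif was in 2 (Gpr132, which rose with LPS, and Gpr176, which fell), the AP-1 motif in 1 (Gpr146, at start site 3) and the ISRE core in 2 (Gpr18, and Gpr19 at start site 3). Among members that rose with LPS, 7 had a promoter, of which 1 held kappaB, 0 AP-1 and 1 the ISRE core. Among those that fell, 5 had one, of which 1 held each motif. Gpr84 held no exact match to any of the 3 motifs in the stretch printed below. The paper searched wider regions around the start with HOMER motifs, so no match here does not mean that a gene lacks such a site. A match is a run of letters and no binding was measured.

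The promoters of Gpr84, Gpr18, Gpr132 and Gpr176 are printed from GRCm38.p6, with motif letters in capitals. They were chosen after the matches and values were seen, as the member that rose most and those with a match at their only start site. All 4 lie on the minus strand, at chr15:103310389-103310688, chr14:121915839-121916138, chr12:112860867-112861166 and chr2:118373370-118373669. The capitals mark the ISRE core in Gpr18, which begins at -41 from the start, and the kappaB motif in Gpr132 and Gpr176, at -88 and -117.
Gpr84 promoter: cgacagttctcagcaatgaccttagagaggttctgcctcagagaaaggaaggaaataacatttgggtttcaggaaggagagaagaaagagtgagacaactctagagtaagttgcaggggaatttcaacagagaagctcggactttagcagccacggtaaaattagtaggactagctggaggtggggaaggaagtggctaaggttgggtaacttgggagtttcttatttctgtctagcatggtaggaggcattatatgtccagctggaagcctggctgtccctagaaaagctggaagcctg
Gpr18 promoter: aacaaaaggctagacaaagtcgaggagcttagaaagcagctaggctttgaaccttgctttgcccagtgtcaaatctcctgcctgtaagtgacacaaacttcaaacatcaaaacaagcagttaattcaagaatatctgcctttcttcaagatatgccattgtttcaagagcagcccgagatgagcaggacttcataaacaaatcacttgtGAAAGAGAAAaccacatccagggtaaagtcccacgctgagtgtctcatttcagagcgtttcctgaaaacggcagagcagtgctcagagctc
Gpr132 promoter: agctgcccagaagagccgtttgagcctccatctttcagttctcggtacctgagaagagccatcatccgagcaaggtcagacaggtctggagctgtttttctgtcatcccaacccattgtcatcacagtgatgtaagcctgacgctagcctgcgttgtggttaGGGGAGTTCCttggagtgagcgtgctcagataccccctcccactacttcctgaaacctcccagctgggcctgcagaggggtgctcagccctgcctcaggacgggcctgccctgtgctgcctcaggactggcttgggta
Gpr176 promoter: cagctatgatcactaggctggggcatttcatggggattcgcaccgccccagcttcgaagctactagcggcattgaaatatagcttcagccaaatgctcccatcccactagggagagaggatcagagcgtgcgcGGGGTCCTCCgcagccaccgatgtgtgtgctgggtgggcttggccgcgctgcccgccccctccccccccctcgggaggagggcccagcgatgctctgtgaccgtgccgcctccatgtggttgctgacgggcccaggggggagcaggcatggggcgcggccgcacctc

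The signalling partners of these receptors were read from fixed lists. Of all 34844 gene names 52.7% were expressed. With LPS 7.99% of them rose and 12.7% fell, with the inhibitor added 5.42% and 4.29%, and with both agents 6.15% and 8.78%. The medians of all expressed genes were -0.19, 0.05 and -0.09 in these comparisons. No list was tested against these values. Of 33 heterotrimeric G protein subunits 23 were expressed, and 4 rose and 4 fell with LPS, 2 rose and 3 fell with the inhibitor added, and 2 were higher and 3 lower with both agents than in untreated cells. Only 1 of the falls with the inhibitor passed with the replicate block. The median log2 differences of the list were -0.01, 0.02 and -0.00 in these comparisons, beside 0.00 for all genes in each. Gnat3, the alpha subunit known from taste cells, was at 5.63 and 8.39 for untreated BMDMs, 4.47 and 8.37 for LPS, and 128 and 148 for LPS+USP7i. Only the last pair was well above background, at least 6.14-fold higher than with LPS (adjusted p = 0.0166). Gna11, an alpha subunit of the Gq class, fell with LPS (log2 difference -1.22, adjusted p = 0.00746) and was higher with the inhibitor added (1.22, adjusted p = 0.0179). Gna12 fell with LPS (-1.59, adjusted p = 0.00781) and stayed lower with both agents (-1.57, adjusted p = 0.0114). The beta subunit Gnb4 rose with LPS (2.90, adjusted p = 0.00629) and fell with the inhibitor added (-1.91, adjusted p = 0.0278; 0.0606 with the replicate block, and 0.00220 to 0.0887 over 15 alternatives).

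Of 21 RGS proteins 14 were expressed, with 3 higher and 5 lower with LPS, 0 higher and 1 lower with the inhibitor added, and 0 higher and 6 lower with both agents against untreated cells, by limma (3 and 3 for the counts of 0 at an unadjusted p under 0.05). The replicate block gave 2 lower with the inhibitor added and 2 higher with both agents. The medians were 0.01, -0.07 and -0.02. Rgs16 rose with LPS (log2 difference 3.72, adjusted p = 0.0289), and Rgs1 rose (1.56, adjusted p = 0.0287; 0.0612 with the block, and 0.00431 to 0.122 over 15 alternatives). Rgs14 fell with the inhibitor added (-1.64, adjusted p = 0.0167), and Rgs18 was lower with both agents than in untreated cells (-1.79, adjusted p = 0.0359). Of 8 arrestins and receptor kinases 7 were expressed, with 1 higher and 3 lower with LPS, 0 higher and 1 lower with the inhibitor added (limma; 2 and 1 at an unadjusted p under 0.05), and 1 higher and 3 lower with both agents. The medians were -0.86, 0.04 and -0.57. Arrb1, the arrestin that uncouples many receptors, fell with LPS from 12602.5 and 10514.5 to 2727 and 2706 (-2.08, adjusted p = 0.00368). Adrbk2, a receptor kinase, rose with LPS (1.91, adjusted p = 0.0180) and fell with the inhibitor added (-2.05, adjusted p = 0.0291). Grk6 fell with LPS (-1.19, adjusted p = 0.00832), and Grk5 was higher with both agents than in untreated cells (1.53, adjusted p = 0.0450).

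Of 28 genes of the cAMP pathway 23 were expressed, with 2 higher and 6 lower with LPS, 1 higher and 3 lower with the inhibitor added, and 3 higher and 6 lower with both agents. With the replicate block 2 were higher and 1 lower with the inhibitor added. The medians were -0.12, 0.08 and -0.01. The phosphodiesterase Pde4b rose with LPS (log2 difference 4.93, adjusted p = 0.00156) and the adenylyl cyclase Adcy9 fell (-2.70, adjusted p = 0.00302). Pde8b fell with LPS (-1.53, adjusted p = 0.00802) and was higher with the inhibitor added (2.12, adjusted p = 0.0132), and Pde3b was lower with both agents than in untreated cells (-1.74, adjusted p = 0.00762). Of 27 receptors that once had a GPR name 15 were expressed, 4 of the 27 being members here under their older names. In this list 4 rose and 2 fell with LPS, 0 rose and 4 fell with the inhibitor added (limma; 2 and 7 at an unadjusted p under 0.05), and 2 were higher and 3 lower with both agents, with medians of 0.01, 0.01 and -0.03. A receptor that was not expressed gave 1 of these rises, 1 of the falls with the inhibitor and 1 of those lower with both agents. Hcar2, the receptor for butyrate and niacin, was at 51.0 and 58.2 without treatment, 3729 and 3344 after LPS, and 435 and 564 after LPS+USP7i, an order of groups that Gpr84 also had. It rose with LPS (6.02, adjusted p = 0.00246) and fell with the inhibitor added (-2.83, adjusted p = 0.0119). P2ry13 rose (2.60, adjusted p = 0.0211) and fell to background with the inhibitor (at least 10.2-fold, adjusted p = 0.0209), Ccrl2 rose (5.37, adjusted p = 0.00254), and Lpar6 fell with LPS (-3.76, adjusted p = 0.00246). Of the calls named here for the receptors' partners and relatives, those of Gna11, Gna12, Gnb4, Arrb1, Adcy9, Pde4b, Pde8b, Hcar2, Ccrl2 and Lpar6 with LPS and of Pde3b with both agents held under all 15 alternatives. The others did not pass under at least 1 of them, with adjusted p up to 0.179, for Grk5.

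Marker genes of the labelled cells and treatment were read as well. All 8 macrophage markers were well above background on all 6 arrays, with medians of -0.17, -0.41 and -0.42 in the 3 comparisons, and their most abundant gene, Csf1r, was at 162128 to 270952. Cd14 rose with LPS (log2 difference 1.70, adjusted p = 0.00500) and fell with the inhibitor added (-1.33, adjusted p = 0.0176). Itgam fell with LPS (-0.65, adjusted p = 0.0237), and Fcgr1 fell with the inhibitor added (-1.61, adjusted p = 0.0318). All 8 LPS response markers rose with LPS, with a median of 8.43, and 0 rose and 3 fell with the inhibitor added (limma; 0 and 6 at an unadjusted p under 0.05), with a median of -1.96. Of the 3, only Nos2 passed with the replicate block. Il6 gave 11.87, Ptgs2 10.11, Il1b 10.04 and Cxcl10 8.91 with LPS.

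Markers of other cell types were partly present. Siglech of dendritic cells (signal 24762 to 51204) and Kdr of endothelium (5323 to 9776) were well above background on all 6 arrays. Col1a1, Col3a1 and Pdgfra of fibroblasts, Tek and Emcn of endothelium, Flt3, Cd209a and Xcr1 of dendritic cells, Cd3g of T cells, Mcpt4 of mast cells and Gzma of NK cells were well above background on no array. Outside the macrophage and LPS lists, Pax5 and Zbtb46 were the only markers called, while the replicate block also called Cd79b, Elane, Mpo, Camp and Kit. Zbtb46 was at least 5.65-fold higher with LPS (adjusted p = 0.00435). Pax5 was at least 2.08-fold higher with both agents than in untreated cells (adjusted p = 0.0104), with signals no higher than 33.6. In the remaining lists 2 of 4 T cell, 4 of 5 B cell, 5 of 6 neutrophil, 1 of 5 fibroblast, 1 of 4 endothelial, 2 of 5 dendritic cell, 2 of 5 mast cell and megakaryocyte and 1 of 4 NK cell markers were expressed. Some differed by replicate number: the summed signal of the B cell markers was 1057 and 668 on the untreated arrays, 1156 and 533 on the LPS arrays, and 714 and 314 on the LPS+USP7i arrays. Pf4, of megakaryocytes, was 64124 and 150220.0, 54713 and 118778, and 79912 and 148701. The part of other cells in the values of the GPR-named genes was not tested.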

How the data were processed

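The deposited scanner files give each spot's intensity as processed signal, background subtracted by the scanner software per the file headers, with nothing done between arrays. The authors' deposited table gives log2 values that their methods describe as quantile-normalized. Its column medians were 5.03 to 5.06, its background correction is not stated, and it served only as an alternative source. Here the processed signal of 55681 probes was quantile-normalized and taken to log2, with outlier spots left out. limma 3.58.1 in R 4.3.3 fitted 1 mean per group (residual df 3, prior df 1.05), p values were adjusted by Benjamini-Hochberg over the 55680 probes tested, and 0.05 was the threshold. A gene was represented by its probe with the highest mean signal, and counts cover all 94 members. For a lower bound, a value not above background was set to the lowest signal well above background on its array, where that was higher.

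The members and the gene lists were chosen with earlier results of these data known. Values on every array were due for Gpr84, the expressed proton sensing receptors and the 12 expressed members with the largest called difference (1 of these is not shown), and of each list up to 4 expressed genes with the largest called difference were named. Members expressed in 1 group alone passed the detection rule through that group. The replicate pairs correlated at 0.996, 0.993 and 0.991 over 20721 probes. The difference between replicates correlated between groups at 0.468, 0.398 and 0.421, across probes, which are not independent replicates, so a fit with replicate number as a term was run. The alternatives were 75th percentile scaling, normexp in place of the scanner's background subtraction (offset 50), the deposited values, dim probes left out, outlier spots kept, eBayes with trend, only the 2 groups compared, the replicate block, the mean of all probes, a log2 difference of at least 1, and each array left out. A left-out array leaves its group with 1 array, which limma then assumes to vary like the others.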

Additional observations from a re-analysis of the deposited data

How the results depend on the processing

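Over 15 alternatives the 36 called results of expressed members kept their direction in all 540 cases; in 387 they also passed and in 153 they did not. 75th percentile scaling gave 42 members higher for LPS against untreated, and 40 higher and 10 lower for LPS+USP7i against untreated; it shifts all genes, as given above. Normexp correction gave 11 lower for LPS+USP7i against LPS and 11 lower against untreated, and leaving out dim probes 11 lower against untreated, with fewer probes tested; otherwise the cause was not tested. With only the 2 groups compared, and so fewer arrays, LPS+USP7i against LPS gave 0 higher and 0 lower by limma (4 and 11 at an unadjusted p under 0.05), and against untreated 3 higher and 2 lower. The replicate block gave 3 lower for LPS+USP7i against LPS, and it changed no other call of a member or named gene than those given, besides Rgs14 with LPS and with both agents, Pde3b with LPS and with the inhibitor, Pde4b and Pax5 with the inhibitor (lost), and Rgs16 with both agents and Rgs18 with LPS and with the inhibitor (gained). With 1 array left out, counts ran from 5 to 12 higher and 2 to 10 lower for LPS against untreated, 0 to 4 and 0 to 5 for LPS+USP7i against LPS, and 2 to 5 and 0 to 3 for LPS+USP7i against untreated. The count of 5 came without untreated replicate 2, and counts of 2 or 3 lower without either untreated or either LPS replicate. The counts of 0 came without untreated replicate 1 or 2 for LPS+USP7i against LPS (4 higher and 11 lower unadjusted) and without untreated replicate 2 for LPS+USP7i against untreated (17 unadjusted). The count of 4 higher came without LPS+USP7i replicate 2. Each left-out array moved the counts of LPS+USP7i against untreated, to 2 or 3 higher except without LPS+USP7i replicate 1, and to at most 3 lower. The count of 36 expressed genes was 27 on all arrays and 44 on any. Signals near background limit the dim members: a gene under the lowest well-above-background signal of an array (14.6 to 23.2) may still be expressed, and folds against it are bounds.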
